A study of Homo sapiens with 3 samples.

Results

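MCL1 and 9 other genes of the BCL2 family were read in xenograft tumors of SUM-149, a triple-negative breast cancer (TNBC) cell line. The 10 genes were taken by name from a table of 29689 gene symbols, and all 10 were listed in it. They were the anti-apoptotic MCL1, BCL2, BCL2L1 (BCL-XL) and BCL2A1, the effectors BAX and BAK1, and the BH3-only genes BCL2L11 (BIM), BBC3 (PUMA), PMAIP1 (NOXA) and BID. Proteins of this family decide at the mitochondrial outer membrane whether a cell undergoes apoptosis. BAX and BAK1 form pores in the membrane, the anti-apoptotic proteins hold them in check, and the BH3-only proteins report damage or growth factor loss by binding the guards or the effectors. MCL1 has a short-lived mRNA and protein and is a known survival factor in TNBC, and PMAIP1 binds MCL1 and BCL2A1 in preference to BCL2 and BCL2L1.

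The hosts were female Nu/Nu mice, which lack T cells, and the cells had been placed with Matrigel in their mammary fat pads. RNA came from tumor tissue. The Vehicle tumor was mock treated, the CDK2i tumor was given dinaciclib for 10 days, and the EZH2i tumor was given the EZH2 inhibitor EPZ6438 for 10 days. Dinaciclib inhibits CDK2 and several other cyclin-dependent kinases, among them CDK9, which drives transcription elongation. EPZ6438 blocks the methyltransferase EZH2, the catalytic subunit of the repressive PRC2 complex. The sample labels name EPZ6438, while the text of the study also names GSK343 as an EZH2 inhibitor given to SUM-149 xenografts, so the agent is taken from the label. All 3 tumors came from 1 cell line, the sex and strain of the hosts were shared, and the ages of the mice and the dose behind each library are not given in the sources used here.

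There was 1 library per condition, so no difference below has a replicate check and no p-value was computed. Values are log2 FPKM, where FPKM counts fragments relative to gene length and library size, and FPKM itself where levels of different genes are set side by side. The libraries held about 16.8 M (Vehicle), 19.1 M (CDK2i) and 17.5 M (EZH2i) fragments (M, 1000000). Intervals in brackets are exact 95% intervals of a log2 difference that cover counting error only, and the fragment numbers behind them are approximate. A gene passed the thresholds where it differed more than 2-fold from the Vehicle tumor and its higher level in that pair of tumors exceeded log2 FPKM 3 (8 FPKM). Expressed genes are the 11109 whose mean log2 FPKM exceeded 1 and that had a fragment in every library. In tumor tissue, fewer cells of a type and less RNA per cell cannot be told apart.

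All 8 epithelial markers (KRT5, KRT6A, KRT14, KRT17, KRT8, KRT18, EPCAM and CDH1) were above the expression minimum in each tumor. Their summed level was 6485 FPKM under vehicle, 15443 under CDK2i and 6212 under EZH2i, against 11.3, 11.1 and 5.52 FPKM for 8 human blood cell markers, of which 2, 1 and 4 were listed at 0. Most of the epithelial sum was KRT5, KRT6A, KRT14 and KRT17, so it does not measure epithelial content. In the same order of tumors, EPCAM was at 66.3, 74.0 and 81.0 FPKM and CDH1 at 32.6, 44.8 and 41.3. KRT8 was at 169, 200 and 121 FPKM and KRT18 at 29.6, 42.1 and 35.1. The leukocyte marker PTPRC was at −5.48 and −5.67 log2 FPKM in the Vehicle and CDK2i tumors and listed at 0 FPKM in the EZH2i tumor. The 6 fibroblast markers summed to 19.9, 29.2 and 21.9 FPKM and the 3 listed endothelial markers to at most 0.833 FPKM. All these values are for human genes, while the blood cells, fibroblasts and vessels of the hosts were those of mice.

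Of the 10 genes, none passed the thresholds in the CDK2i tumor and 2, MCL1 and PMAIP1, passed in the EZH2i tumor, both higher than in the Vehicle tumor. In CDK2i, 6 of the 10 reached the expression minimum and could have passed, and in EZH2i 7 could. Over all genes that could have passed, 3.27% were called higher and 8.07% lower in CDK2i, and 8.93% were called higher and 4.42% lower in EZH2i. With 10 genes, counts of 0 and 2 cannot be read as apart from these shares. The median log2 difference of the 10 genes was 0.05 in CDK2i and 0.09 in EZH2i, beside −0.11 and 0.19 over the expressed genes. By direction alone, 5 were higher and 5 lower in CDK2i, and 6 were higher and 4 lower in EZH2i. Over the expressed genes, 41.9% were higher and 58.0% lower in CDK2i, and 61.5% were higher and 38.5% lower in EZH2i. Of the 10, 8 were among the expressed genes, all but BCL2 and BCL2A1.

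**Figure D1:**
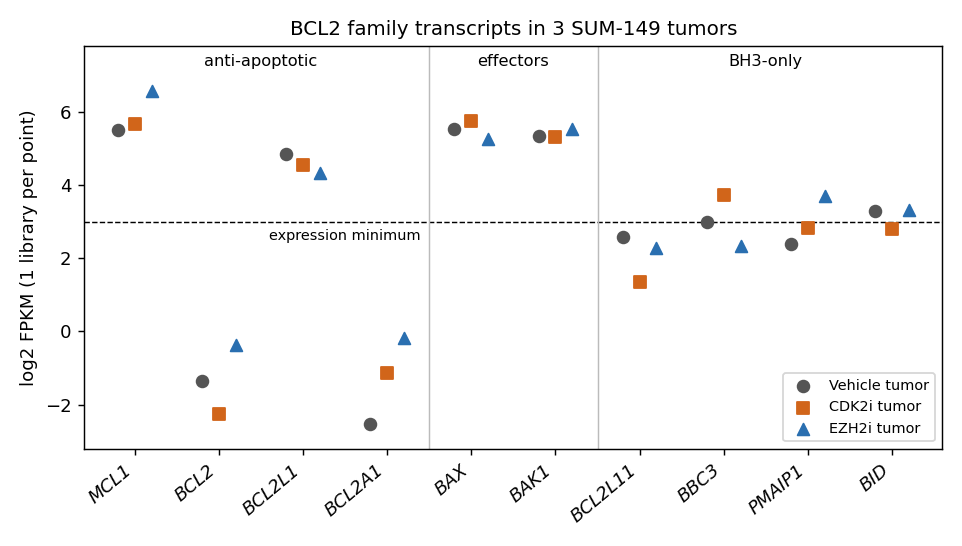
Level of each of the 10 genes (vertical axis, log2 FPKM) in the Vehicle, CDK2i and EZH2i tumors, 1 library per point, with the expression minimum of log2 FPKM 3 as a dashed line. MCL1, BCL2L1, BAX and BAK1 lie above the line in all 3 tumors, BCL2 and BCL2A1 lie below 0 in all 3, and the 4 BH3-only genes lie between 1.36 and 3.72.

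The order of the levels was led by the same 4 genes in each tumor. In the Vehicle tumor BAX (46.0 FPKM), MCL1 (45.7), BAK1 (40.8) and BCL2L1 (28.9) were followed by BID (9.87), BBC3 (8.01), BCL2L11 (5.98) and PMAIP1 (5.29). BCL2 and BCL2A1 were below 1 FPKM in each tumor. The CDK2i tumor had the same first 4 in the same order. In the EZH2i tumor MCL1 came first at 95.5 FPKM, ahead of BAK1 at 46.0 and BAX at 38.1. With 1 library per condition there is no spread by which to say which neighbors in this order differ, and BAX and MCL1 in the Vehicle tumor lay too close to be ordered.

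Among the anti-apoptotic genes, MCL1 (chromosome 1 of GRCh37, 150533371 to 150552214, minus strand) was at 5.52 log2 FPKM under vehicle, 5.66 under CDK2i and 6.58 under EZH2i. The Vehicle and CDK2i tumors were close and the EZH2i tumor stood above both. These levels stood for about 3032, 3834 and 6612 fragments, so counting error was small beside the EZH2i difference. The log2 difference from the Vehicle tumor was 0.15 in CDK2i [0.08 to 0.22] and 1.06 in EZH2i [1.00 to 1.13], which is 2.09-fold. Among expressed genes, 91.6% had a lower EZH2i difference than MCL1. Its level was above that of 87.5% of expressed genes in the Vehicle tumor and 95.4% in the EZH2i tumor. The EZH2i tumor differed from the CDK2i tumor by 0.91 [0.86 to 0.97]. MCL1 lay just past the fold threshold in EZH2i, and its difference was 0.81 after the libraries were centred on the median expressed gene, which ended the call. With a trend in base composition and length removed it was 0.76.

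BCL2L1, which encodes the guard BCL-XL, lies on chromosome 20 (30252255 to 30311792, minus strand) and was the only other anti-apoptotic gene above the expression minimum. Its level was 4.85 log2 FPKM under vehicle, 4.54 under CDK2i and 4.34 under EZH2i. Both treated tumors were lower than the Vehicle tumor, by less than the fold threshold. The differences were −0.31 in CDK2i [−0.43 to −0.19] and −0.51 in EZH2i [−0.64 to −0.39], and 13.7% of expressed genes had a lower EZH2i difference. MCL1 and BCL2L1 therefore stood on opposite sides of 0 in both treated tumors, under each of the 8 settings tried for scaling, pseudocount and base composition. The ratio of MCL1 to BCL2L1 in FPKM, which does not depend on the scaling between libraries, was 1.58 under vehicle, 2.18 under CDK2i and 4.72 under EZH2i. It was 3.18 under EZH2i with a trend in base composition and length removed.

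BCL2, the founding member of the family, lies on chromosome 18 (60790579 to 60987361, minus strand) and was weakly expressed. It was at 0.391 FPKM under vehicle, 0.210 under CDK2i and 0.780 under EZH2i, about 45, 28 and 94 fragments. The CDK2i tumor was the lowest and the EZH2i tumor the highest. The log2 differences were −0.90 in CDK2i [−1.63 to −0.18] and 1.00 in EZH2i [0.47 to 1.54], and the EZH2i value was 1.99-fold, just short of the fold threshold. BCL2 could not have passed in any case, since its level stayed under the expression minimum.

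BCL2A1, an anti-apoptotic gene best known from blood cells and a target of NF-kB, lies on chromosome 15 (80253234 to 80263538, minus strand). Its FPKM values fitted whole multiples of 1 fragment to within 0.0323%. The smallest such solution was 3 fragments under vehicle, 9 under CDK2i and 16 under EZH2i, and multiples of it would fit as well. It implies a length of about 1033 bases, against 780 for the matched transcript, and the intervals below rest on it. Both treated tumors were thus higher, from a base of very few fragments. The log2 difference was 1.40 in CDK2i [−0.61 to 3.92], an interval that includes 0, and 2.35 in EZH2i [0.55 to 4.77]. The level remained under 1 FPKM in each tumor. Between the Vehicle and EZH2i tumors the summed level of the 8 human blood cell markers, most of it CD14 and ITGAM, went from 11.3 to 5.52 FPKM. Among the weaker markers PTPRC went from 0.0224 FPKM to a listing at 0, LYZ from 0.0389 to 0.224 FPKM and CSF1R from 0.164 to 0.215 FPKM. Their part in the BCL2A1 values was not tested, and how reads of the mouse hosts were treated is not given in the sources used here.

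The effectors BAX and BAK1, which form the membrane pores, stayed within the fold threshold in both treated tumors. BAX (chromosome 19, 49458072 to 49465055, plus strand) was at 5.52 log2 FPKM under vehicle, 5.76 under CDK2i and 5.25 under EZH2i. BAK1 (chromosome 6, 33540324 to 33548070, minus strand) was at 5.35, 5.31 and 5.52. The differences of BAX were 0.23 [0.08 to 0.39] in CDK2i and −0.27 [−0.44 to −0.10] in EZH2i. Those of BAK1 were −0.05 [−0.15 to 0.06] and 0.17 [0.07 to 0.27]. The groups were close and no tumor stood apart for either gene. The direction in EZH2i depended on the processing for both effectors, since BAX ran from −0.52 after centring to 0.52 with the base composition trend removed and BAK1 from −0.08 to 0.57 under the same settings. The direction of BAK1 in CDK2i also turned, with a range of −0.19 to 0.14. The ratio of BAX to BAK1 was 1.13 under vehicle, 1.37 under CDK2i and 0.829 under EZH2i, where it was 1.08 with that trend removed.

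The BH3-only genes, the sensors of the family, differed in both directions, from −1.23 to 0.72 in CDK2i and from −0.68 to 1.30 in EZH2i. PMAIP1, which encodes NOXA, lies on chromosome 18 (57567228 to 57571537, plus strand). It was at 2.40 log2 FPKM under vehicle, 2.83 under CDK2i and 3.71 under EZH2i. Both treated tumors were higher than the Vehicle tumor and the EZH2i tumor was the highest. The difference was 0.43 in CDK2i [0.14 to 0.71] and 1.30 in EZH2i [1.04 to 1.57], which is 2.47-fold and above that of 95.9% of expressed genes. The EZH2i tumor was above the CDK2i tumor by 0.88 [0.65 to 1.10]. In 7 of the 8 settings the EZH2i difference was more than 2-fold. In the other, a trend in base composition fitted over genes above the expression minimum and chosen after seeing the data, it was 0.996, just short of the fold threshold.

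BBC3, which encodes PUMA and like PMAIP1 and BAX is a known p53 target, lies on chromosome 19 (47724079 to 47736023, minus strand). Its level was 3.0 log2 FPKM under vehicle, 3.72 under CDK2i and 2.32 under EZH2i. The CDK2i tumor was the highest and the EZH2i tumor the lowest. The log2 difference was 0.72 in CDK2i [0.50 to 0.95], above that of 93.8% of expressed genes, and −0.68 in EZH2i [−0.97 to −0.39]. With the base composition trend removed these values were 0.38 and 0.05, so the direction in EZH2i did not hold. The 2 treated tumors differed from each other by 1.40 on the log2 scale in the deposited values, EZH2i being 0.378 times CDK2i. The ratio of PMAIP1 to BBC3 was 0.661 under vehicle, 0.538 under CDK2i and 2.61 under EZH2i, and with the trend removed it was 0.701 under CDK2i and 1.33 under EZH2i.

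BCL2L11, which encodes BIM, an activator of BAX and BAK1 that ERK signaling holds low, lies on chromosome 2 (111876955 to 111926021, plus strand). It was at 5.98 FPKM under vehicle, 2.56 under CDK2i and 4.84 under EZH2i. The CDK2i tumor stood below the other two. The log2 difference in CDK2i was −1.23 [−1.45 to −1.0], which is 2.34-fold lower and the largest decrease among the 10 genes in either treated tumor. Of the expressed genes, 6.77% had a lower difference. BCL2L11 passed the fold threshold but not the expression minimum, so it was not called. It kept a difference of −1.22 with the base composition trend removed. In EZH2i the difference was −0.31 [−0.50 to −0.12] and stayed below 0 under all 8 settings, though at −0.07 with summed FPKM made equal.

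BID, which links death receptors to the mitochondria once it is cut by caspase-8, lies on chromosome 22 (18216904 to 18257536, minus strand). Its level was 9.87 FPKM under vehicle, 6.98 under CDK2i and 9.91 under EZH2i. The Vehicle and EZH2i tumors were alike and the CDK2i tumor was lower. The log2 difference was −0.50 in CDK2i [−0.73 to −0.27] and 0.01 in EZH2i [−0.21 to 0.22], and the EZH2i value turned negative after centring (−0.24).

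**Figure D2:**
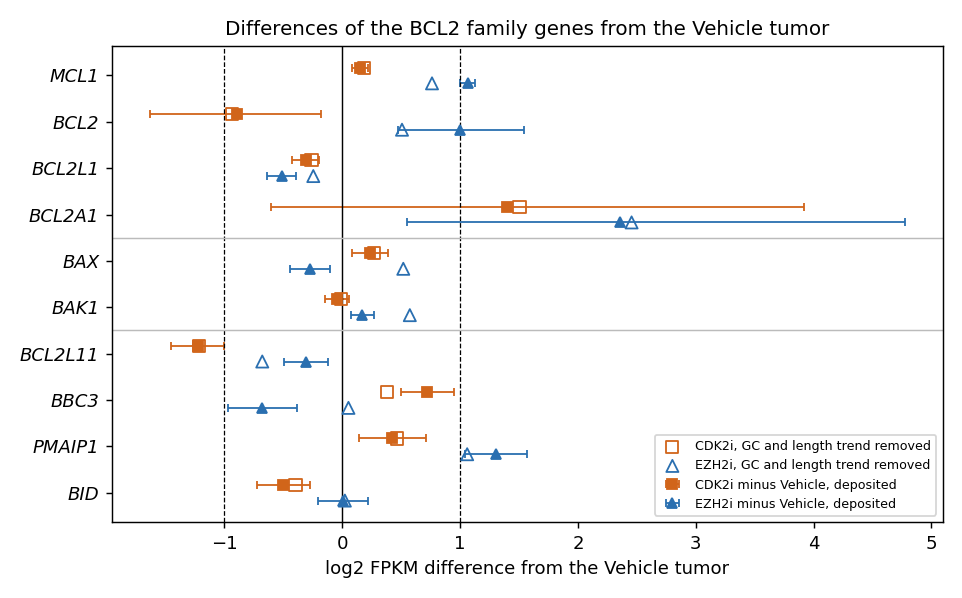
Log2 FPKM difference of the CDK2i tumor (squares) and the EZH2i tumor (triangles) from the Vehicle tumor for the 10 genes, as deposited (filled, with 95% counting intervals as bars) and with the GC and length trend removed (open). Dashed lines mark a fold of 2. In EZH2i MCL1 is at 1.06 as deposited and 0.76 with the trend removed, PMAIP1 stays past the line at 1.30 and 1.06, and in CDK2i BCL2L11 is at −1.23 and −1.22.

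BCL2A1 and PMAIP1 had the 2 largest EZH2i differences among the 10 genes. Their promoters are shown for that reason, so the pair was chosen by the outcome. BCL2A1 ranks there on few fragments, about 3 under vehicle and 16 under EZH2i. The 2 sequences are unlike each other. Each window holds the 250 bases before the RefSeq start, placed on GRCh37 by an exact match at chr18:57566978-57567227 (plus strand) for PMAIP1 and chr15:80263539-80263788 (minus strand) for BCL2A1. Each is written 5′ to 3′ on the strand of the gene, and capitals mark matches on either strand to the letters GGGCGG (the GC box), TGACG (the CRE core) and TATAAA (the TATA box).
PMAIP1: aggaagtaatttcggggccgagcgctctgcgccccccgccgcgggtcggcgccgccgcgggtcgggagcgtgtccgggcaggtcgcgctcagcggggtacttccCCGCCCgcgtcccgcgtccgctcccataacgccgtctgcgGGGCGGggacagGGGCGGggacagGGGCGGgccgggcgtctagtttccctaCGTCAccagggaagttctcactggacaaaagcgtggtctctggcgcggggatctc
BCL2A1: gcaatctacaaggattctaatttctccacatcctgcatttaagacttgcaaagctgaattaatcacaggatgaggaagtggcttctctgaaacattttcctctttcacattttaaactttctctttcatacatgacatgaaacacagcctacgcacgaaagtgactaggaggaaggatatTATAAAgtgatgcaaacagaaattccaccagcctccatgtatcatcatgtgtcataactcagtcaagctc

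The PMAIP1 window was 72.8% GC with 36 CpG dinucleotides, 4 GC boxes and 1 CRE core. The BCL2A1 window was 38.8% GC with 2 CpG dinucleotides and 1 TATA box. Over 35116 RefSeq windows of the same length the median was 58% GC and 11 CpG, and 42.6% held a GC box, 21.2% a CRE core and 10.7% a TATA box. Neither window held the CCAAT box (32.0% of all windows), the AP-1 site TGANTCA (6.57%) or the E box CACGTG (6.34%). A window was found for 9 of the 10 genes, all but MCL1. A match is a description of the letters, and binding of a factor was not measured.

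The EZH2i differences ran with the base composition of the transcript, and the EZH2i values above are to be read beside that trend. Over the 10281 expressed genes with a matched transcript, the Spearman correlation of the EZH2i difference with GC content was −0.574 and with length 0.494, against 0.0353 and 0.103 for CDK2i. These are correlations across genes, which share a library and are not independent replicates. Split into 3 bins of 3427 genes by GC content, the median EZH2i difference was 0.61 in the lowest bin (up to 44.5% GC), 0.23 in the middle and −0.22 in the highest. Among the 10 BCL2 family genes the EZH2i differences also tended to fall with GC content, but some lay off the trend. BCL2L11 went from −0.31 to −0.68 and BCL2A1 from 2.35 to 2.46 with the GC and length trend removed. PMAIP1 had the lowest GC content at 36.7%, followed by BCL2A1 (40.4%), BCL2 (44.4%), MCL1 (45.1%) and BCL2L11 (45.5%), and apart from BCL2L11 these had the 4 largest EZH2i differences of the 10. BCL2L1 (56.6%), BAX (60.8%) and BBC3 (69.7%) were lower than in the Vehicle tumor, as was BCL2L11. Across the 10 genes Pearson's r of the EZH2i difference with GC content was −0.768 and Spearman's rho −0.818, while for CDK2i they were 0.083 and −0.006.

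**Figure D3:**
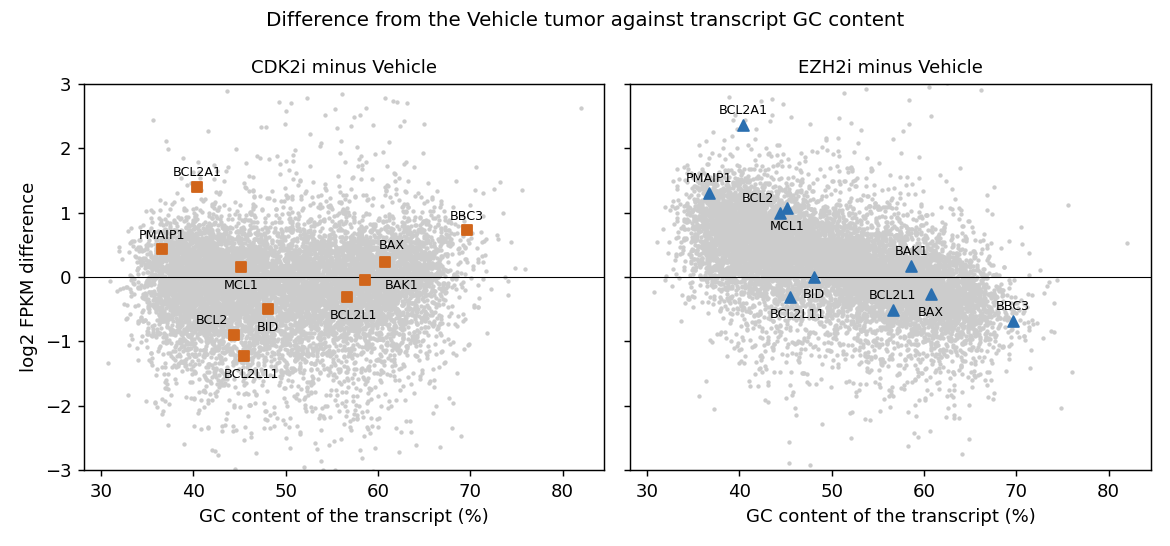
Log2 FPKM difference from the Vehicle tumor (vertical axis, cut at −3 and 3) against GC content of the transcript in percent, for expressed genes (grey) and the 10 BCL2 family genes (colored). In EZH2i the grey cloud slopes down and the family genes run from PMAIP1 at 36.7% GC and 1.30 to BBC3 at 69.7% GC and −0.68, while in CDK2i the cloud is flat.

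With a polynomial trend in GC content and length removed, MCL1 was at 0.76 in EZH2i and no longer passed the fold threshold, while PMAIP1 was at 1.06 and did. BCL2 was at 0.51 and BCL2A1 at 2.46. The effectors BAX and BAK1 were at 0.52 and 0.57, BCL2L1 at −0.25 and BCL2L11 at −0.68. In CDK2i MCL1 was at 0.18 and BCL2L1 at −0.26, and BBC3 moved most, from 0.72 to 0.38. The part of base composition in these EZH2i values was not tested.

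The balance of the anti-apoptotic and pro-apoptotic sides was followed as a ratio of summed FPKM within each library. The 4 anti-apoptotic genes summed to 75.2 FPKM under vehicle, 74.6 under CDK2i and 117 under EZH2i. The 6 pro-apoptotic genes summed to 116, 123 and 117 FPKM. The ratio was 0.648 under vehicle (95% counting interval 0.617 to 0.681), 0.605 under CDK2i (0.578 to 0.633) and 1.00 under EZH2i (0.962 to 1.05). The higher ratio in EZH2i came with MCL1, which made up 60.8% of the anti-apoptotic sum under vehicle, 67.9% under CDK2i and 81.4% under EZH2i, while BCL2L1 made up 38.4%, 31.2% and 17.2%. Without MCL1 the ratio was 0.254, 0.194 and 0.187. With the GC and length trend removed the EZH2i ratio was 0.648, at the level of the Vehicle tumor, and the CDK2i ratio was 0.620. The ratio counts transcripts and not proteins.

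**Figure D4:**
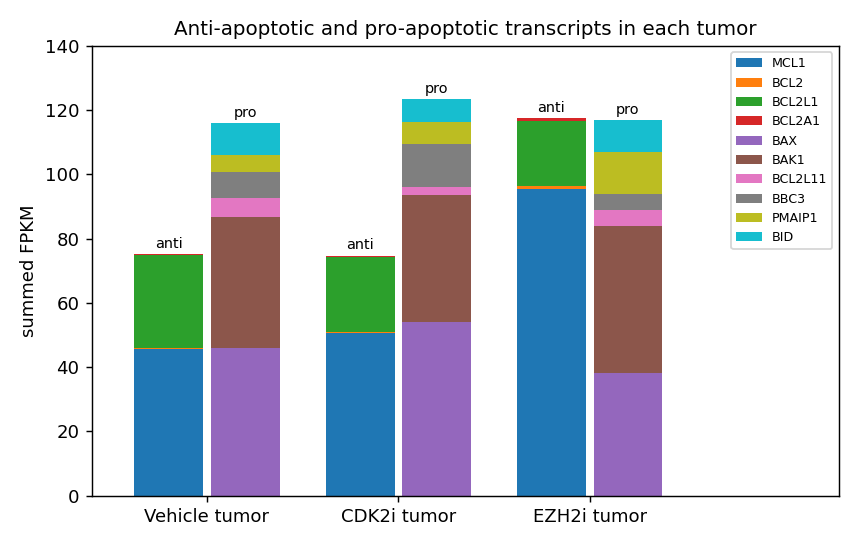
Summed FPKM (vertical axis) of the 4 anti-apoptotic and the 6 pro-apoptotic genes in each tumor, stacked by gene, 1 library per pair of bars. The pro-apoptotic bars stand at 116, 123 and 117 FPKM in Vehicle, CDK2i and EZH2i, and the anti-apoptotic bar of EZH2i reaches 117 FPKM through MCL1 at 95.5.

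Within the pro-apoptotic side, BAX and BAK1 together held 86.8 FPKM under vehicle, 93.6 under CDK2i and 84.1 under EZH2i. The BH3-only genes summed to 29.1, 29.9 and 32.8 FPKM. In the Vehicle tumor BID was the largest share at 33.9% and PMAIP1 the smallest at 18.1%. In CDK2i BBC3 led with 44.3% and BCL2L11 was down to 8.57%. In EZH2i PMAIP1 led with 39.8%, and BBC3 was at 15.2% and BCL2L11 at 14.8%. With the trend removed the EZH2i shares were 33.3% for PMAIP1, 30.3% for BID, 25.1% for BBC3 and 11.3% for BCL2L11. The ratio of MCL1 to BCL2L11, a guard to an activator that it binds, was 7.64 under vehicle, 19.8 under CDK2i and 19.8 under EZH2i. With the trend removed it was 20.2 under CDK2i and 20.7 under EZH2i. In EZH2i MCL1 was at 1.06 and BCL2L11 at −0.31 as deposited, and at 0.76 and −0.68 with the trend removed. The ratio of MCL1 to PMAIP1 was 8.65, 7.14 and 7.33.

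Other genes of the apoptosis pathway were read from 7 lists with 85 further genes in the table. Of these, 5 passed the thresholds in CDK2i, of 38 that could, and 6 in EZH2i, of 50 that could. All 6 in EZH2i were higher, while in CDK2i 4 were lower and 1 was higher. These counts stand beside 3.27% higher and 8.07% lower over all genes that could pass in CDK2i, and 8.93% and 4.42% in EZH2i, and are near those shares. Of the expressed genes 58.0% were lower in CDK2i (median −0.11) and 61.5% were higher in EZH2i (median 0.19, and 0.21 with the trend removed), which is the level to read each list against. The genes named here are those that passed and the most highly expressed gene of each list.

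None of the 13 other BCL2 family genes passed in either tumor. Their median difference over the 9 with a mean log2 FPKM above 1 was −0.30 in CDK2i and −0.01 in EZH2i. BOK, a BAX-like effector, had the highest level, at 5.69 log2 FPKM under vehicle, 5.28 under CDK2i and 5.15 under EZH2i. BMF, a BH3-only gene linked to loss of attachment and named after its values were seen, was at 5.99 FPKM under vehicle, 0.981 under CDK2i and 1.92 under EZH2i. It stayed under the expression minimum, with differences of −2.61 and −1.64.

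Downstream of the mitochondria, none of the 16 caspase and apoptosome genes passed. The 15 with a mean above 1 had a median difference of −0.20 under CDK2i and 0.04 under EZH2i. VDAC1, a channel of the outer membrane, was the highest at 6.80, 7.10 and 6.93 log2 FPKM in Vehicle, CDK2i and EZH2i. Among the 7 inhibitor of apoptosis genes none could have passed in CDK2i and 1 could in EZH2i. That gene, BIRC2 (cIAP1), was the highest of its list at 2.65, 2.65 and 3.62 log2 FPKM, a difference of 0.98 in EZH2i that did not pass. The 4 with a mean above 1 had median differences of −0.09 under CDK2i and 0.88 under EZH2i, and the EZH2i median was 0.53 with the trend removed.

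In the death receptor pathway 11 of 12 genes were listed. In CDK2i 2 of the 7 that could pass were lower. TNFRSF1A, the main TNF receptor, was at 6.35 log2 FPKM under vehicle, 5.03 under CDK2i and 6.43 under EZH2i, and had the highest mean of the list. FADD, the adaptor that recruits caspase-8, was at 12.2 FPKM under vehicle, 1.02 under CDK2i and 13.6 under EZH2i. The differences in CDK2i were −1.32 and −3.58. In EZH2i 2 of 8 were higher, the TRAIL receptors TNFRSF10A by 1.07 and TNFRSF10B by 1.02. TNFRSF10A stood at 7.46, 6.74 and 15.7 FPKM in Vehicle, CDK2i and EZH2i, and TNFRSF10B at 20.6, 16.4 and 41.9. With the trend removed these EZH2i differences were 1.08 and 0.88. FAS, named after its values were seen, differed by −1.32 under CDK2i and by 1.27 under EZH2i and stayed under the expression minimum.

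For the turnover of the MCL1 protein, 10 genes were read, all with a mean above 1. They include genes that stabilize the protein and genes that act in its degradation, so their median gives no direction of turnover. The median difference was −0.02 in CDK2i and 0.83 in EZH2i, where it was 0.49 with the trend removed. None of 3 passed in CDK2i and 2 of 7 passed in EZH2i. USP9X, a deubiquitinase that stabilizes MCL1, was at 1.91 log2 FPKM under vehicle, 2.33 under CDK2i and 3.16 under EZH2i. CDC27, a subunit of the ubiquitin ligase APC/C, was at 2.80, 2.41 and 3.87. Their EZH2i differences of 1.24 and 1.07 were 0.57 and 0.44 with the trend removed. PSMD2, a proteasome subunit, had the highest mean of the list, at 6.43, 7.0 and 6.90 log2 FPKM.

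The 22 p53 response genes include BBC3, PMAIP1 and BAX of the 10 genes and TNFRSF10B and FAS of the death receptors. In CDK2i 2 of 11 passed. BTG2, an antiproliferative gene, differed by 1.07 and PHLDA3, an inhibitor of AKT, by −1.57. BTG2 was at 13, 27.3 and 12.7 FPKM in Vehicle, CDK2i and EZH2i, and PHLDA3 at 137, 46.1 and 83.7. In EZH2i 2 of 13 passed, PMAIP1 and TNFRSF10B. CDKN1A, which encodes the cell cycle inhibitor p21, had the highest mean of the list, at 6.16, 6.77 and 6.45 log2 FPKM. The 18 with a mean above 1 had a median difference of −0.21 under CDK2i and 0.25 under EZH2i.

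The last list held 11 genes of the kinases and partners that act on elongating RNA polymerase II, on whose output short-lived transcripts such as MCL1 depend. In CDK2i 10 of the 11 were lower than in the Vehicle tumor, with a median of −0.43, beside 58.0% and −0.11 over the expressed genes, and 1 of 5 passed. This gene, HEXIM1, which encodes an inhibitor of CDK9, was at 26.7 FPKM under vehicle, 6.02 under CDK2i and 23.4 under EZH2i. Its difference in CDK2i was −2.15. CCNT2 (−0.05), POLR2A (−0.07), CCNK (−0.1) and CDK13 (−0.11) were lower by less than the 0.18 by which centring shifts the CDK2i differences. The count of lower genes in CDK2i therefore depended on the scaling. In EZH2i 9 of 11 were higher with a median of 0.58, which was 0.33 with the trend removed, beside 0.19 and 0.21 over the expressed genes. CCNT1 (cyclin T1, the partner of CDK9) and AFF4 (a scaffold of the super elongation complex) passed at 1.15 and 1.20. With the trend removed they were at 0.55 and 0.55. POLR2A, the largest polymerase subunit, had the highest mean of the list at 4.99, 4.92 and 5.56 log2 FPKM.

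**Figure D5:**
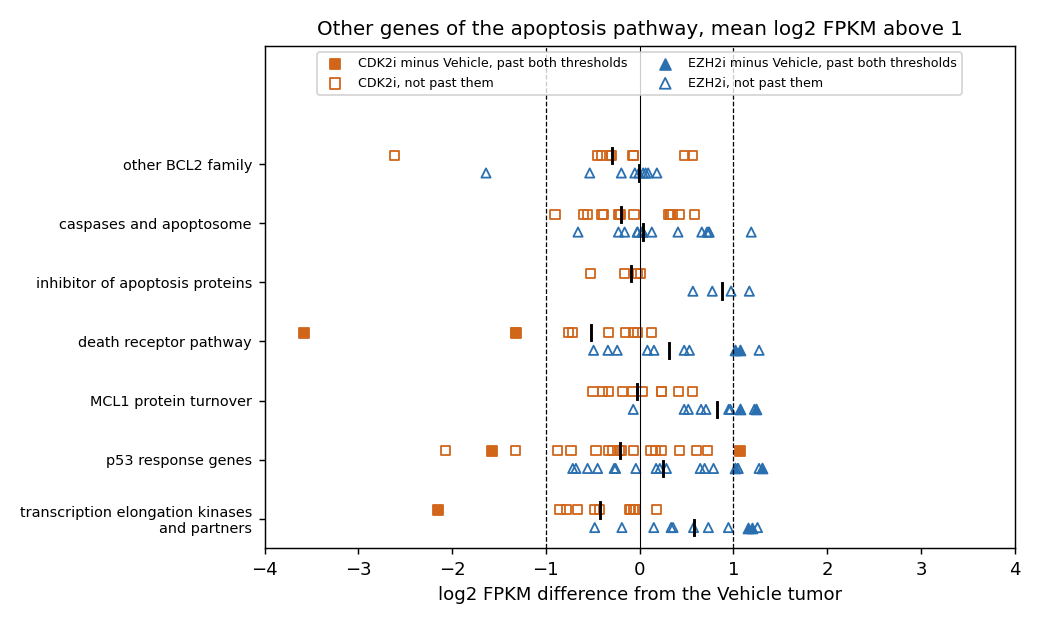
Log2 FPKM difference from the Vehicle tumor (horizontal axis) for genes of the 7 pathway lists with a mean log2 FPKM above 1, CDK2i as squares and EZH2i as triangles, filled where both thresholds were passed, with black bars at the list medians and dashed lines at a fold of 2. Genes in 2 lists are drawn in both, and the p53 list includes BBC3, PMAIP1 and BAX. FADD at −3.58 and HEXIM1 at −2.15 stand apart in CDK2i, and the EZH2i medians of the MCL1 turnover genes (0.83) and the inhibitors of apoptosis (0.88) lie right of 0.

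The 5 genes most like MCL1 were taken as the smallest distance over both differences, among 5146 other genes above log2 FPKM 3 in each library, so the likeness rests on 2 differences that share the Vehicle library. They were FUBP1 (0.16 in CDK2i and 1.05 in EZH2i), NUSAP1 (0.14 and 1.05), SMC2 (0.14 and 1.04), ETNK1 (0.14 and 1.03) and CENPN (0.13 and 1.10). Their transcripts had a GC content of 34.0% to 43.5%, against 45.1% for MCL1. The likeness did not hold for all of them with the trend removed, where MCL1 was at 0.76 in EZH2i, NUSAP1 at 0.86 and CENPN at 0.74, but SMC2 at 0.41, FUBP1 at 0.38 and ETNK1 at 0.32.

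Some exons overlap those of neighboring genes, and without a stated strand setting the reads could be shared. MCL1 shares 43 bases with ADAMTSL4 on the opposite strand, which differed by 0.06 in CDK2i and −0.12 in EZH2i, and 328 bases on the same strand with ADAMTSL4-AS1. BCL2L1 shares 1735 bases with the antisense gene ABALON, BCL2L11 727 with MIR4435-2HG, BAK1 91 with GGNBP1 and BBC3 80 with MIR3191. Values per gene do not separate isoforms, and MCL1, BCL2L1 and BCL2L11 each have splice forms with different or opposite roles in apoptosis.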

How the data were processed

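RNAseq was analysed for 3 SUM-149 xenograft tumors, 1 library per condition. The authors deposited log2 FPKM for each gene symbol on GRCh37/hg19. The submitters' processing notes name CASAVA and STAR, and the counting tool, its strand setting, the gene lengths and the treatment of mouse reads are not given in the sources used here. Genes listed at −9 were read as having 0 FPKM. Differences from the Vehicle tumor were taken without a pseudocount. The thresholds (fold above 2, higher log2 FPKM of the pair above 3) follow the study's methods, and their limma test was not repeated because 1 library gives no error. Depth was recovered from the FPKM steps of 1 fragment and GENCODE 44 transcript lengths, and exact (Clopper-Pearson) intervals of the differences cover counting error only. Intervals of the ratio of summed FPKM are log-normal approximations of the same error. The GC and length trend was a polynomial of degree 3 over 10198 expressed genes without ribosomal protein genes. Of the expressed genes 92.5% had a matched transcript, 18852 of all genes being matched by symbol and 1458 by an older symbol.

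The 10 genes, the pathway lists and the tests were chosen with earlier results of these data known. Named genes were all 10 genes, every list gene past both thresholds in at least 1 treated tumor, the highest gene of each list and the 5 genes nearest MCL1. Promoter sequences came from RefSeq and were placed on GRCh37. Alternatives were other scalings, pseudocounts of 1 and 0.1, trend removal, fold thresholds of 1.5 and 3, expression minimums of 1 and 5 or none, and, for the ratio, leaving out MCL1 or BAX or taking mean log2 FPKM. Trend-removed ratios and shares were added after seeing the data. The threshold calls and the trend removal were tested on simulated data, with planted changes larger than the fold threshold in genes well above the expression minimum. The planted trend was linear in GC content alone, so the removal of a curved trend or a trend in length was not tested. The depth recovery, counting intervals and ratios were not tested in this way. Python 3.11.15, numpy 2.4.6, pandas 2.3.3, scipy 1.17.1 and matplotlib 3.10.9 were used.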

Additional observations from a re-analysis of the deposited data

How the results depend on the processing

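With 1 library per condition no replicate could be left out. No paired analysis was possible because the labels carry 1 library per condition and no test was made. Over 8 settings the direction of each of the 10 genes held in both treated tumors, except for BAK1 in CDK2i and EZH2i and BAX, BBC3 and BID in EZH2i. The 8 include the deposited values, and the pseudocounts of 1 and 0.1 cannot turn a direction. Some that held came near 0, as MCL1 in CDK2i at 0.004 and BCL2L11 in EZH2i at −0.07. The MCL1 difference in EZH2i ran from 0.68 to 1.30 and that of PMAIP1 from 0.996 to 1.54. Centring shifted all differences by 0.18 in CDK2i and −0.25 in EZH2i, equal sums by 0.15 and 0.24, and equal sums without ribosomal protein and mitochondrially encoded genes by −0.15 and 0.04. As deposited, 28.9% of the CDK2i calls and 66.9% of the EZH2i calls were higher, against 50.7% and 31.8% after centring, 46.8% and 88.7% with equal sums, and 17.4% and 71.9% with the last scaling. The median EZH2i difference of the 10 genes was −0.16 after centring, 0.33 with equal sums, 0.51 with the trend removed and 0.40 with the trend fitted over genes above the minimum, an alternative chosen after seeing the data.

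As deposited, 0 of the 10 genes passed in CDK2i and 2 in EZH2i, 752 and 990 of all genes, and 5 and 6 of the list genes. After centring 1 of the 10 (PMAIP1) and 0 list genes passed in EZH2i. With equal sums 1509 of all genes did, and with a pseudocount of 1 there were 3 list genes. With the trend removed 1 of the 10 (PMAIP1), 3 list genes (TNFRSF10A and, named after their values were seen, CDC20 and PLK3) and 400 of all genes passed in EZH2i, the last against 916 of the same annotated genes before it. At a fold of 1.5, 1 of the 10 (BBC3), 1947 of all genes and 11 list genes passed in CDK2i. In EZH2i 3 of the 10 (MCL1, PMAIP1 and, lower, BBC3), 2710 of all genes and 17 list genes did. At a fold of 3 it was 250 of all genes and 2 list genes in CDK2i, and 0 of the 10, 186 of all genes and 0 list genes in EZH2i. At a minimum of log2 FPKM 1, 1 of the 10 (BCL2L11), 2037 of all genes and 9 list genes passed in CDK2i. In EZH2i 2 of the 10 (MCL1 and PMAIP1), 2232 of all genes and 14 list genes did. At a minimum of 5 it was 196 and 2 in CDK2i, and 1 of the 10 (MCL1), 262 and 1 in EZH2i. With no minimum 2 of the 10 (BCL2L11 and BCL2A1), 11703 of all genes and 14 list genes passed in CDK2i. In EZH2i 3 of the 10 (MCL1, PMAIP1 and BCL2A1), 10796 of all genes and 21 list genes did.

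The anti-apoptotic to pro-apoptotic ratio for Vehicle, CDK2i and EZH2i was 0.254, 0.194 and 0.187 without MCL1, 1.07, 1.08 and 1.49 without BAX, and 0.238, 0.263 and 0.455 from mean log2 FPKM. It was 0.648 for EZH2i with the trend removed, also chosen after seeing the data. Depth limits BCL2A1 and BCL2 most.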
